A study of Mus musculus with 18 samples.

Results

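The cytosolic enzymes that carry acetyl-CoA to farnesyl and geranylgeranyl diphosphate were examined in liver RNA of mice lacking *Gpr180*, a gene for a receptor-like membrane protein. The 8 genes were given by name: *Acat2*, *Hmgcs1*, *Mvk*, *Pmvk*, *Mvd*, *Idi1*, *Fdps* and *Ggps1*. All 8 were found among the 23352 gene symbols of the tables, none had a failed estimate, and all 8 passed the filter on low values. The list does not hold every enzyme of this segment. Livers of 9 wild-type (WT) and 9 *Gpr180*KO male mice were compared, with 1 poly(A) RNA library per mouse. All mice were 20 weeks old, of C57BL/6J background and fed a high-fat diet (HFD), so every group carries the diet. The *Gpr180*KO mice were homozygous for a Cas9-made deletion in every cell of the body, so a change in the liver may start in the liver or elsewhere. Values are FPKM, reads scaled to the length of the transcript and to the mapped reads of the library, which allows levels of different genes to be set side by side per length.

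The mevalonate pathway makes sterols and isoprenoids from acetyl-CoA. Its products are built from the same activated isoprene units, which are joined to farnesyl diphosphate, the branch point to squalene and cholesterol, and to geranylgeranyl diphosphate, which is attached to small GTPases. In liver the genes of the pathway are best known as targets of SREBP2, the product of *Srebf2*, which is cleaved to its active form when the sterol content of the endoplasmic reticulum membrane is low and acts together with NF-Y and Sp1.

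The sequence upstream of the transcription start is shown for 4 members that span the range of the genotype difference given further on. *Hmgcs1* and *Mvd* were among the members that were lower in *Gpr180*KO livers, and *Acat2* and *Ggps1* were the members with the smallest differences. The 250 bases before the RefSeq start are printed 5′ to 3′ on the strand of the gene (GRCm38.p6). Capitals mark the core of the sterol regulatory element (TCACNCCAC) and the CCAAT box bound by NF-Y (CCAAT), each searched on both strands, so that ATTGG is a CCAAT box on the other strand.
*Hmgcs1*, chr13:119690101-119690350, plus strand: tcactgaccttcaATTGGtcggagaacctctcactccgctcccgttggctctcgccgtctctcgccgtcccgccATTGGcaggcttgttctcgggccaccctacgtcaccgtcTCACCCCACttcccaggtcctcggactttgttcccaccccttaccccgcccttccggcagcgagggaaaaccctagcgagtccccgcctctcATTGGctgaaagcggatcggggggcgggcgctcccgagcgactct
*Mvd*, chr8:122443423-122443672, minus strand: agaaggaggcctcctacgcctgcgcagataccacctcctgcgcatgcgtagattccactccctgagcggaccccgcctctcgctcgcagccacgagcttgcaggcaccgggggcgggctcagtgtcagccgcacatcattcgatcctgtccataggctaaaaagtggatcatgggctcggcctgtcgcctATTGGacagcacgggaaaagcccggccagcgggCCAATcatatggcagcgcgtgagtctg
*Acat2*, chr17:12960726-12960975, minus strand: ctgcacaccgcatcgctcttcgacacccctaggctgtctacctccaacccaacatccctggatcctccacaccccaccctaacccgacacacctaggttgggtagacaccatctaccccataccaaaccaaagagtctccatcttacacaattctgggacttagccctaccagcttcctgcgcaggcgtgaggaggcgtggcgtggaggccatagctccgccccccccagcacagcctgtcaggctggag
*Ggps1*, chr13:14063489-14063738, minus strand: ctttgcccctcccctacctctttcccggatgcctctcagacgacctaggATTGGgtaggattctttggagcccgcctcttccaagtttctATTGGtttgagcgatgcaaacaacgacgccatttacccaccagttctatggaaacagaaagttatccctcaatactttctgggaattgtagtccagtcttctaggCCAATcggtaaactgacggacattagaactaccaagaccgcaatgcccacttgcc

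Motifs were counted in the RefSeq window from 250 bases before to 50 bases after the start, which was given for 7 of the 8 members (8 windows, as *Pmvk* has 2) and was not used here for *Fdps*. *Hmgcs1* was the 1 member with the sterol regulatory core, TCACCCCAC, with its first base at -137 from the start. The core was present in 408 of 32851 windows of all genes (1.24%). A CCAAT box was found in 6 of the 8 member windows (6 of the 7 members), against 37.4% of all windows and 37.7% of those of genes tested. *Mvk* held 5 CCAAT boxes, *Hmgcs1* held 4 with the last at position 10 after the start, *Ggps1* held 3, *Mvd* and *Idi1* held 2 each, *Pmvk* held 1 and *Acat2* held none. The *Pmvk* box lay in the window at 89454291 to 89454590, which ends before the deposited *Pmvk* entry begins (89459117). The other *Pmvk* window held none. In *Idi1* the boxes began at -45 and -14. The Sp1 box (GGGCGG) was found in 5 of the 8 member windows, against 35.7% of all windows and 61.6% of the windows of genes tested here. Its share in the member windows was thus near that of expressed genes. The E-box CACGTG was in none of the 8 member windows and in 7.15% of all windows. No 2 of these motifs shared bases in a member window. These matches describe letters, not bound sites. *Ggps1*, which was not called changed, held 3 CCAAT boxes and no Sp1 box. The called members *Mvd* and *Idi1* held 2 CCAAT boxes and 1 Sp1 box each.

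The knockout was visible in the target gene. *Gpr180* lay between 4.46 and 9.24 FPKM in the WT livers and between 0.876 and 1.99 FPKM in the *Gpr180*KO livers, without overlap. The sum of FPKM per library ran from 554796 to 718746 (median 570149). The tables hold no read counts, so depth is unknown. Sample titles come in 2 styles, with 4 livers per genotype in title style 1 and 5 in title style 2. What the styles stand for is not given, and they were treated as possible batches. Several libraries stood apart. The *Gpr180*KO library KO51 had the highest FPKM sum, and its genes with short transcripts (under 1500 bases) exceeded those with long ones (over 4000 bases) by 1.44 on the log2 scale, each gene being taken relative to its mean over all libraries. In the other 17 libraries this measure lay between -0.19 and 0.06. The WT library W134 and the *Gpr180*KO libraries KO53, KO54 and KO56 had the 4 highest values of *Tat*, an enzyme of tyrosine breakdown, and of *Pck1*, an enzyme of gluconeogenesis. *Tat* was 930, 1003, 1041 and 1232 FPKM in them, and 243 to 525 FPKM in the other 14. W134 also had 59.2 FPKM of the macrophage gene *Marco*, against 1.41 to 12.48 FPKM elsewhere. These 4 livers are all of title style 2.

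Genotypes were compared gene by gene with limma on log2(FPKM + 0.1), over the 10835 genes whose mean FPKM reached 1, and p-values were adjusted over all of them by Benjamini-Hochberg with a threshold of 0.05. Log2 differences below are *Gpr180*KO minus WT on this scale, which understates changes of low genes. Of the 8 members, *Hmgcs1*, *Pmvk*, *Mvd*, *Idi1* and *Fdps* were lower in *Gpr180*KO livers and none was higher. Over all genes tested, 4.28% were called lower and 0.452% higher. Each of the 8 log2 differences was below 0, as were those of 8337 of the 10835 genes tested. The members' median log2 difference was -0.90, against a median of -0.13 over all genes. Most genes were therefore slightly lower as deposited. After median-of-ratios scaling, which removes that shift (median -0.01), 1.55% of genes were called lower, and calls over all genes went from 464 lower and 49 higher to 168 and 112. The members' median was then -0.78, *Hmgcs1*, *Pmvk* and *Idi1* kept their call, and *Acat2* and *Ggps1* were at -0.06 and -0.12.

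**Figure D1:**
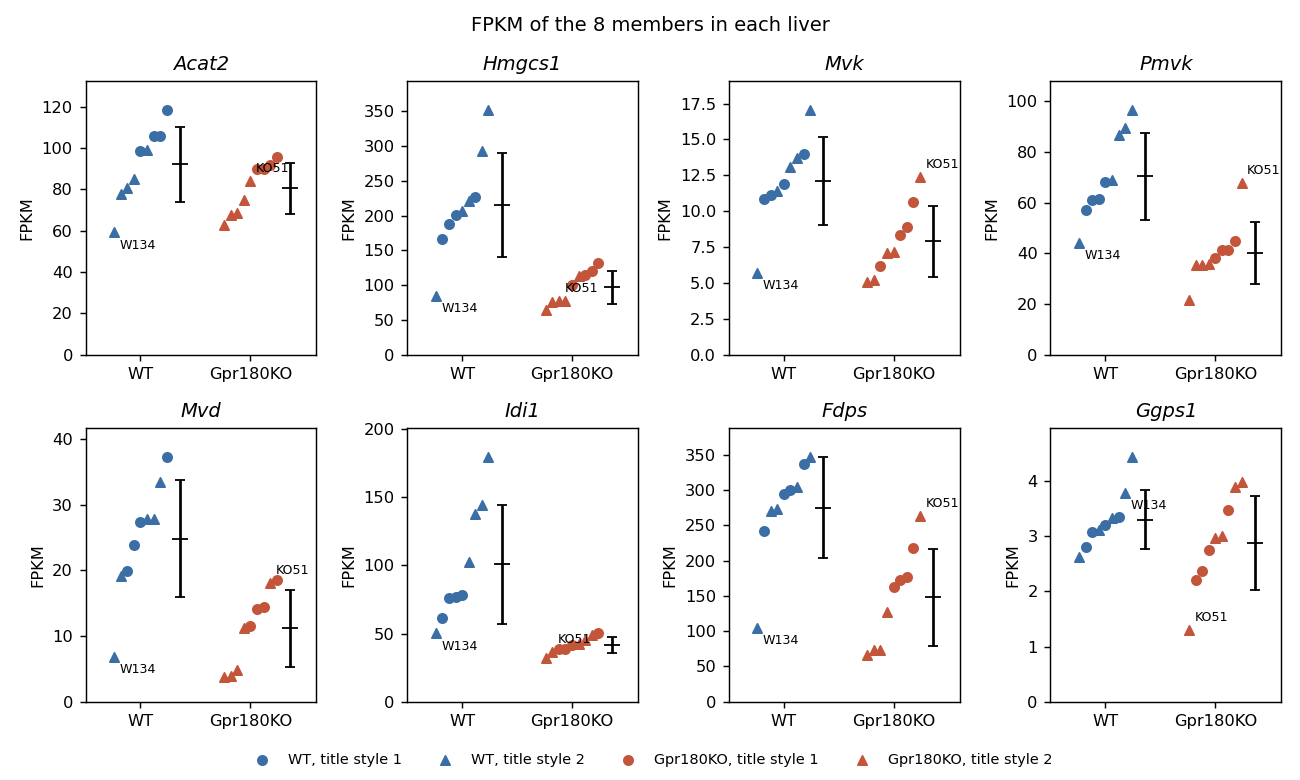
FPKM of each member (linear axis from 0) in 9 WT (blue) and 9 *Gpr180*KO livers (red), 1 point per liver, with circles for title style 1 and triangles for title style 2 and bars for the mean ± SD. *Idi1* lies between 32.3 and 50.2 FPKM in the *Gpr180*KO livers, W134 is the lowest WT liver in 7 of the 8 panels, and KO51 is the highest *Gpr180*KO liver for *Fdps*, *Pmvk* and *Mvk*.

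*Acat2*, on chromosome 17 of GRCm38 (12942890 to 12960747, minus strand), encodes the cytosolic thiolase that joins 2 acetyl-CoA to acetoacetyl-CoA. It ran from 59.2 through a median of 98.6 to 118 FPKM in WT livers, and from 62.6 through 83.9 to 95.5 FPKM in *Gpr180*KO livers. The ranges overlapped over most of their length, although all 9 *Gpr180*KO livers were under the WT median. The difference did not pass the threshold (log2 difference -0.18, 95% confidence interval -0.44 to 0.07, limma adjusted p = 0.377). The lower bound of this interval was nearer to 0 than the estimates for *Hmgcs1* and *Idi1*. Of the 75-base windows of its longest coding transcript, 40.7% also occur in its neighbour *Acat3*, which measured 139 ± 28.7 FPKM in WT and 155.9 ± 17.8 FPKM in *Gpr180*KO livers (SD, n = 9 each), so reads of these genes may have been shared between them.

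*Hmgcs1*, on chromosome 13 (119690379 to 119708260, plus strand), encodes the cytosolic HMG-CoA synthase, which adds another acetyl unit to make HMG-CoA. Its level ran from 85.0 through 207 to 352 FPKM in WT livers, and from 63.7 through 101 to 131.3 FPKM in *Gpr180*KO livers. The lowest WT liver was W134. The other 8 WT livers had at least 166 FPKM and were above all 9 *Gpr180*KO livers. The mean fell from 215 ± 75.2 to 96.9 ± 24.1 FPKM (SD, n = 9 each), to 44.96% of WT (log2 difference -1.10, standard error 0.21, limma adjusted p = 0.0132).

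The next enzymes on the list are kinases. *Mvk* (chromosome 5, 114444269 to 114460591, plus strand) encodes mevalonate kinase, which is inhibited by farnesyl and geranylgeranyl diphosphate. It ran from 5.68 through 11.9 to 17.03 FPKM in WT and from 5.06 through 7.15 to 12.4 FPKM in *Gpr180*KO livers. The lowest WT value was again that of W134, and the highest *Gpr180*KO value that of KO51. The longest coding transcript of *Mvk* has 1660 bases, and short transcripts were high relative to long ones in KO51. The log2 difference of -0.62 (95% confidence interval -1.01 to -0.22) did not pass the threshold (limma unadjusted p = 0.00406 and limma adjusted p = 0.0631). It passed when W134, KO319 or KO51 was left out (adjusted p between 0.0176 and 0.0453) and with title style as a block (limma adjusted p = 0.0447).

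*Pmvk* (chromosome 3, 89454541 to 89469013, plus strand) encodes phosphomevalonate kinase, which adds the second phosphate. It ran from 44.1 through 68.1 to 96.4 FPKM in WT livers and from 21.4 through 38.3 to 67.8 FPKM in *Gpr180*KO livers. KO51, the library with the excess of short transcripts, had the highest *Gpr180*KO value, the next being 45.02 FPKM. The longest coding transcript of *Pmvk* has 1194 bases. Of the 9 *Gpr180*KO livers 7 were below every WT liver. The mean fell from 70.3 ± 17.2 to 40.1 ± 12.3 FPKM (SD, n = 9 each; log2 difference -0.83, standard error 0.17, limma adjusted p = 0.0162).

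*Mvd* (chromosome 8, 122433601 to 122443422, minus strand) encodes mevalonate diphosphate decarboxylase, which makes isopentenyl diphosphate, the isoprene unit. It ran from 6.87 through 27.3 to 37.2 FPKM in WT and from 3.79 through 11.6 to 18.5 FPKM in *Gpr180*KO livers. Without W134 the lowest WT liver was at 19.2 FPKM, above all 9 *Gpr180*KO livers. KO53, KO56 and KO54 held the 3 lowest values, from 3.79 to 4.84 FPKM. *Mvd* had the most negative log2 difference of the members, -1.25, but also the largest standard error, 0.35, and its adjusted p of 0.0464 (limma) was close to the threshold. The call was lost without any 1 of 12 libraries, W317, W318, W319, W320, W131, W133, W156, KO320, KO52, KO53, KO54 and KO56 (adjusted p 0.0565 to 0.0992), and after median-of-ratios scaling (limma adjusted p = 0.0858).

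*Idi1* (chromosome 13, 8885501 to 8892451, plus strand) encodes the isomerase that converts isopentenyl to dimethylallyl diphosphate. It ran from 50.19 through 77.9 to 179 FPKM in WT livers and from 32.3 through 41.8 to 50.23 FPKM in *Gpr180*KO livers. W134 and KO322 overlapped by less than 0.1 FPKM, and the other 8 livers of each genotype were apart. The *Gpr180*KO livers varied little, with a coefficient of variation of 14.2%, against 43.4% in WT livers. The mean fell from 101 ± 43.6 to 41.6 ± 5.89 FPKM (SD, n = 9 each; log2 difference -1.17, standard error 0.20, limma adjusted p = 0.00677). By p-value *Idi1* ranked 15 among all genes tested, the highest rank of a member. Of the 75-base windows of its longest coding transcript 20.7% also occur in *Gm13502*.

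*Fdps* (chromosome 3, 89093588 to 89101959, minus strand) encodes farnesyl diphosphate synthase. It ran from 104 through 294 to 346 FPKM in WT livers and from 66.8 through 163 to 263 FPKM in *Gpr180*KO livers. The *Gpr180*KO livers spread more than for any other member but *Mvd*, from 66.8 to 73.8 FPKM in KO53, KO54 and KO56 up to 263 FPKM in KO51. The longest coding transcript of *Fdps* has 1382 bases, and KO51 is the library with the excess of short transcripts. The mean fell from 275 ± 71.6 to 148 ± 68.7 FPKM (SD, n = 9 each; log2 difference -0.98, standard error 0.27, limma adjusted p = 0.0446). The call was lost without any 1 of the same 12 libraries as for *Mvd* (adjusted p 0.0521 to 0.0949) and after median-of-ratios scaling (limma adjusted p = 0.0935). Of the 75-base windows of its longest coding transcript 32.7% also occur in genes elsewhere, most of them in *Gm3571*, so some reads may belong to these.

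*Ggps1* (chromosome 13, 14050659 to 14063488, minus strand) encodes geranylgeranyl diphosphate synthase, which takes the branch that does not lead to cholesterol. It ran from 2.62 through 3.21 to 4.43 FPKM in WT and from 1.30 through 2.97 to 3.99 FPKM in *Gpr180*KO livers, ranges that largely overlap. The lowest value was that of KO51, in which genes with long transcripts were low and of which *Ggps1*, with the longest transcript of the members (4244 bases), is one. The log2 difference of -0.24 (95% confidence interval -0.59 to 0.11, limma adjusted p = 0.409) did not pass the threshold and was -0.11 without KO51. *Pmvk*, *Fdps* and *Mvk*, for which KO51 was the highest *Gpr180*KO liver, have the shortest transcripts of the members (1194, 1382 and 1660 bases). The part of transcript length in these KO51 values was not tested.

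**Figure D2:**
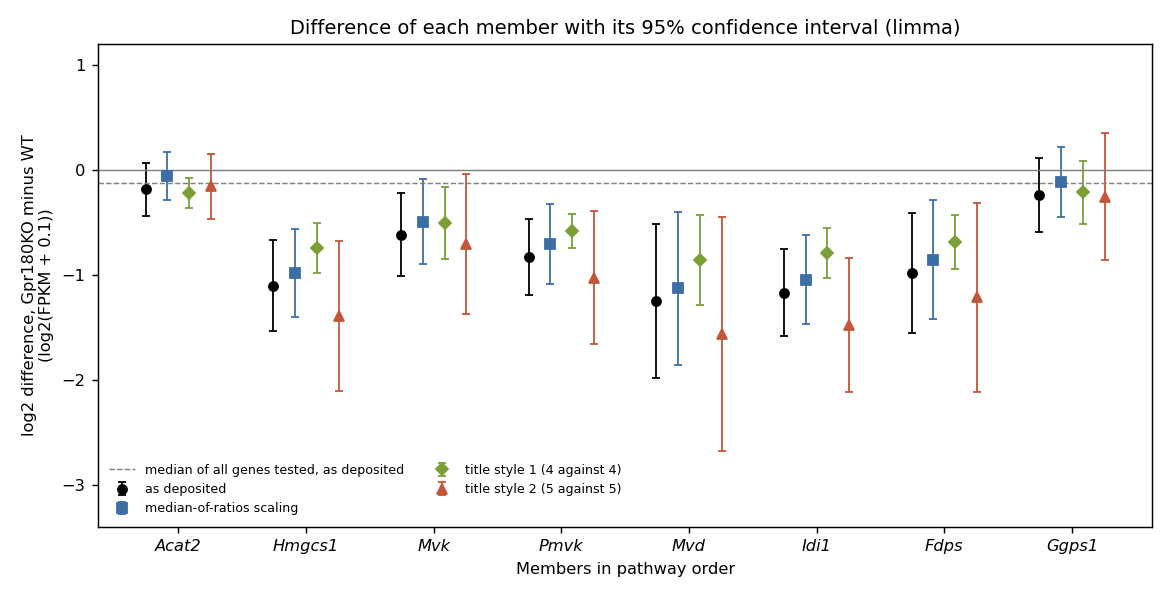
Log2 difference of each member with its 95% confidence interval from limma, in pathway order, for the deposited values, after median-of-ratios scaling and within each title style. Every estimate is below 0, with *Mvd* (-1.25), *Idi1* (-1.17) and *Hmgcs1* (-1.10) farthest from 0 and *Acat2* (-0.18) and *Ggps1* (-0.24) nearest. The dashed line is the median of all genes tested (-0.13).

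No member was apart in the genotypes over all 18 livers, as was the case for 0.175% of all genes tested (every *Gpr180*KO liver below every WT liver). Without W134, 3 members (*Hmgcs1*, *Mvd* and *Idi1*) were apart, against 0.591% of all genes. Within title style 1, 7 members, all but *Ggps1*, had their 4 *Gpr180*KO livers below their 4 WT livers, against 11.5% of all genes. There, *Hmgcs1* averaged 195 ± 25.6 FPKM in WT and 117 ± 12.8 FPKM in *Gpr180*KO livers, and *Idi1* 73.0 ± 7.99 and 42.3 ± 5.51 FPKM (SD, n = 4 each). Limma within title style 1 called the same 5 members lower, against 5.29% of all genes.

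In title style 2 the differences were farther from 0 for the called members, and the spread was wider. *Hmgcs1* averaged 232 ± 100 FPKM in WT and 81.1 ± 18.5 FPKM in *Gpr180*KO livers, and *Idi1* 123 ± 48.8 and 41.0 ± 6.77 FPKM (SD, n = 5 each). The *Gpr180*KO means of *Idi1* thus lay close together in both styles, whereas its WT mean was higher in style 2. Limma within title style 2 called none of the 8 members (6 had an unadjusted p under 0.05) and 0.00932% of all genes, a single gene. The log2 difference of *Hmgcs1* was -0.74 in style 1 and -1.39 in style 2, that of *Idi1* -0.79 and -1.47, and that of *Mvd* -0.86 and -1.56. The difference between the styles was itself tested with limma's interaction term. It passed the threshold for none of the members and for 0% of all genes. The lowest adjusted p of a member was 0.677, for *Idi1*, and 0 members and 833 genes had an unadjusted p under 0.05.

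**Figure D3:**
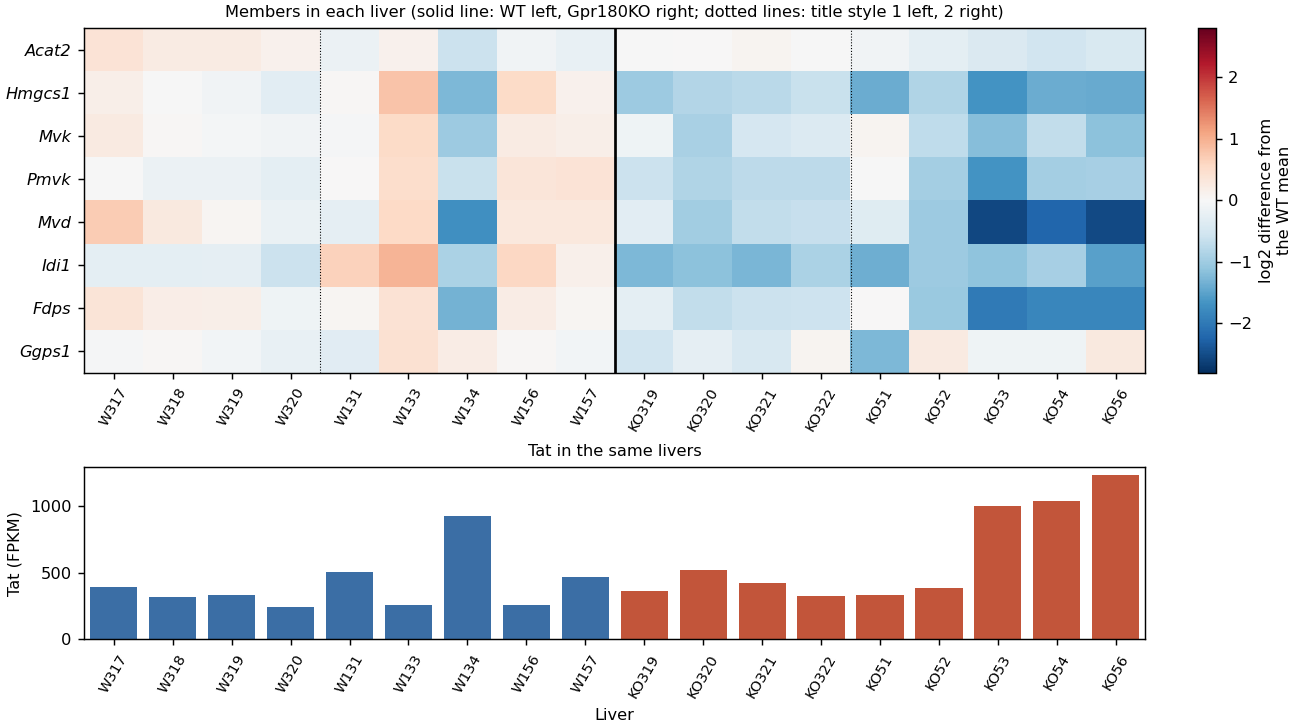
Top, log2 difference of each member from its WT mean in each of the 18 livers (rows in pathway order; red higher, blue lower). Bottom, *Tat* in the same livers (FPKM, bars from 0). *Fdps* and *Mvd* are lowest in W134 among WT and in KO53, KO54 and KO56 among *Gpr180*KO livers, the 4 livers in which *Tat* is at least 930 FPKM.

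The members did not vary independently between livers. In W134 the median member was 0.95 below its WT mean on the log2 scale, and in W133 it was 0.52 above. Among the *Gpr180*KO livers it lay between -1.43 (KO53) and -0.22 (KO51). The 4 livers with the highest *Tat* included the lowest WT liver and the 3 with the lowest *Mvd* and *Fdps* in *Gpr180*KO livers. Whether what sets *Tat* apart in them has a part in the genotype difference was not tested. Without W134, KO53, KO54 and KO56 the same 5 members were called lower (0.782% of all genes were), and the log2 differences were -1.27 for *Idi1*, -1.06 for *Hmgcs1*, -0.88 for *Mvd*, -0.73 for *Pmvk* and -0.70 for *Fdps*. Without KO51, 6 members were called lower, *Mvk* in addition (6.46% of all genes were).

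Correlations between members were computed within each genotype, on log2(FPKM + 0.1) over 9 livers, of *Hmgcs1* with each of the other 7 members. These are 14 relations, tested by exact permutation over 362880 pairings, two-sided, with Benjamini-Hochberg adjustment over the 14. In WT livers *Hmgcs1* rose with *Mvk* (r = 0.97, permutation adjusted p = 0.000617; rho = 0.97, adjusted p = 0.00232), and r was 0.84 without the 2 livers farthest from the *Hmgcs1* median, W134 and W133. For *Pmvk* r was 0.92 (permutation adjusted p = 0.00114; rho = 0.92, adjusted p = 0.00918) and 0.81 without these livers, and for *Idi1* it was 0.84 (permutation adjusted p = 0.00555; rho = 0.80, adjusted p = 0.0387) and 0.70.

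The relations of *Hmgcs1* with the other called members leaned more on those livers. For *Fdps* in WT livers r was 0.91 (permutation adjusted p = 0.00555; rho = 0.85, adjusted p = 0.0213) and 0.59 without them, and for *Mvd* r was 0.90 (permutation adjusted p = 0.0127; rho = 0.85, adjusted p = 0.0213) and 0.54. *Acat2* (r = 0.57, permutation adjusted p = 0.178) and *Ggps1* (r = 0.14, permutation adjusted p = 0.716) did not pass the threshold. In *Gpr180*KO livers none of the 7 relations passed with Pearson's r, and 1 had an unadjusted p under 0.05. The highest was that with *Acat2* (r = 0.75, permutation adjusted p = 0.0646; rho = 0.77, adjusted p = 0.0499). KO51 stood apart in these relations. Relative to the WT mean its *Hmgcs1* was at -1.40 on the log2 scale. Its *Mvk*, *Pmvk* and *Fdps* were at 0.09, -0.01 and 0.00. The relations without KO51 alone were not computed. The difference between genotypes was not tested. The relations pool both title styles without removing their means. With 4 or 5 livers per title style no correlation was computed within a style.

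Ratios of neighbouring members within a liver do not depend on how libraries are scaled. They show where along the list the change was unequal. The list does not hold every enzyme, so neighbours in it need not be successive steps of the pathway. Each of the 7 ratios was compared between genotypes by a two-sided exact permutation test over 48620 regroupings, with adjustment over the 7. The ratio of *Hmgcs1* to *Acat2* ran from 1.44 through 1.92 to 3.55 in WT livers and from 0.915 through 1.23 to 1.51 in *Gpr180*KO livers, and fell by 0.92 on the log2 scale (exact permutation adjusted p = 0.000864). The measured FPKM of *Hmgcs1* thus differed between genotypes by more than that of *Acat2*, the thiolase before it. Reads of *Acat2* may have been shared with *Acat3*, as given above, and whether this enters the ratio was not tested.

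The ratio of *Mvk* to *Hmgcs1* rose by 0.49 on the log2 scale (exact permutation adjusted p = 0.0138). It ran from 0.0471 through 0.0597 to 0.0680 in WT and from 0.0546 through 0.0705 to 0.162 in *Gpr180*KO livers. The highest value was that of KO51, without which the rise was 0.36 (adjusted p = 0.0236). Within title style 1 the rise was 0.24 (exact permutation adjusted p = 0.55), and within title style 2 it was 0.69 (exact permutation adjusted p = 0.0556). The other 5 ratios did not pass the threshold. From *Pmvk* to *Fdps* the log2 ratios of neighbours differed between genotypes by -0.42 (*Mvd* to *Pmvk*), 0.08 (*Idi1* to *Mvd*) and 0.19 (*Fdps* to *Idi1*), with adjusted p of 0.199 to 0.827 in the exact permutation test. The ratio of *Ggps1* to *Fdps* differed by 0.74 (exact permutation adjusted p = 0.172). It passed without KO51 (difference 0.99, adjusted p = 0.0394).

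**Figure D4:**
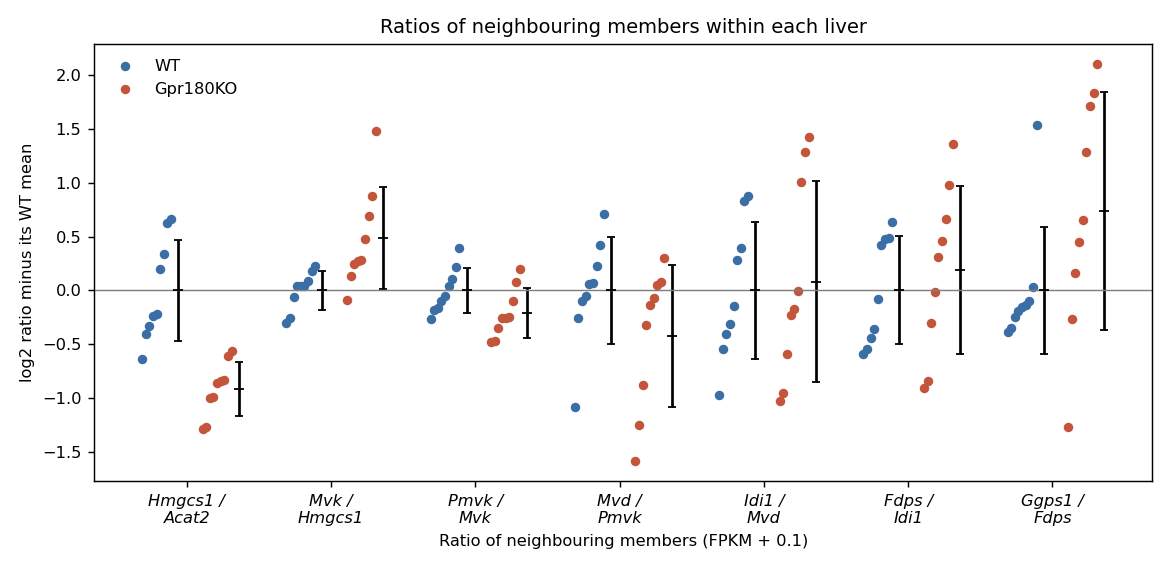
Log2 ratio of each member to the member before it, in each liver, minus its WT mean (WT blue, *Gpr180*KO red; bars are mean ± SD, n = 9 each). The *Hmgcs1* to *Acat2* ratio is lower in *Gpr180*KO livers by 0.92 and the *Mvk* to *Hmgcs1* ratio higher by 0.49, while the *Idi1* to *Mvd* ratio is spread around the WT mean.

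In order of level per length, WT livers had most *Fdps* (275 FPKM), then *Hmgcs1* (215), *Idi1* (101), *Acat2* (92.2), *Pmvk* (70.3), *Mvd* (24.8), *Mvk* (12.1) and *Ggps1* (3.30 FPKM), an 83.2-fold range between the WT means of the synthases *Fdps* and *Ggps1*. Neighbours in this order were not always distinct. *Fdps* exceeded *Hmgcs1* in 8 of 9 WT livers and in 7 of 9 *Gpr180*KO livers. *Idi1* exceeded *Acat2* in 4 of 9 WT livers and in 0 of 9 *Gpr180*KO livers, so these genes had no fixed order in WT livers. *Mvd* exceeded *Mvk* in all 9 WT livers and in 6 of 9 *Gpr180*KO livers. The confidence bounds deposited beside each FPKM, which cover the counting of 1 library, had a median half-width of 4.1% of the value for *Fdps*, 7.6% for *Pmvk*, 9.98% for *Mvd*, 14.2% for *Mvk* and 20.7% for *Ggps1*. In 47 of the 144 member values the FPKM lay above its own upper bound (all 18 values of *Acat2*, 17 of *Hmgcs1* and 12 of *Idi1*), so for these genes the bounds cannot be read as an error of the value.

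Genes around the pathway were counted in the same fit. Of the 12 enzymes from squalene to cholesterol, 8 were lower and none was higher (median log2 difference -0.77). The most negative were *Sqle*, squalene epoxidase, at -1.63 (limma adjusted p = 0.00157), *Cyp51*, a sterol demethylase, at -0.98 (limma adjusted p = 0.00637), *Nsdhl*, a sterol dehydrogenase, at -0.98 (limma adjusted p = 0.0112), and *Lss*, which closes the sterol ring, at -0.95 (limma adjusted p = 0.0132). After median-of-ratios scaling 4 of the 12 were called lower. *Fdft1*, squalene synthase, which takes the product of *Fdps* into this branch, was at -0.64 and did not pass the threshold (limma adjusted p = 0.0613).

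The users of farnesyl and geranylgeranyl diphosphate outside sterol synthesis, such as the protein prenyltransferases and the enzymes of dolichol and ubiquinone synthesis, gave a different count. Of the 16 tested, none passed the threshold in limma (2 had an unadjusted p under 0.05), and their median of -0.12 was near that of all genes (-0.13). The extremes were *Chm*, a Rab escort protein, at -0.45 (limma adjusted p = 0.327) and *Pdss2*, a subunit of the enzyme that makes the ubiquinone side chain, at 0.12 (limma adjusted p = 0.478).

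Of 7 genes tested for acetyl-CoA supply and mitochondrial counterparts, 2 were lower and both supply cytosolic acetyl-CoA. *Acss2*, acetyl-CoA synthetase, went from 124 ± 36.9 to 60.3 ± 13.4 FPKM (SD, n = 9 each; log2 difference -0.999, limma adjusted p = 0.0146), and *Acly*, ATP citrate lyase, from 145 ± 41.6 to 90.2 ± 21.3 FPKM (-0.66, limma adjusted p = 0.0424). After median-of-ratios scaling *Acly* lost its call (limma adjusted p = 0.0932) and *Acss2* kept it. Among 7 SREBP control genes, 1 was lower, and 5 had an unadjusted p under 0.05 (limma). Of these 5, only *Srebf1* had a positive difference. *Srebf2* went from 14.1 ± 1.46 to 9.93 ± 1.83 FPKM (log2 difference -0.51, limma adjusted p = 0.0159), while *Srebf1* averaged 69.3 FPKM in WT and 86.3 FPKM in *Gpr180*KO livers (log2 difference 0.32, standard error 0.12, limma adjusted p = 0.138).

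**Figure D5:**
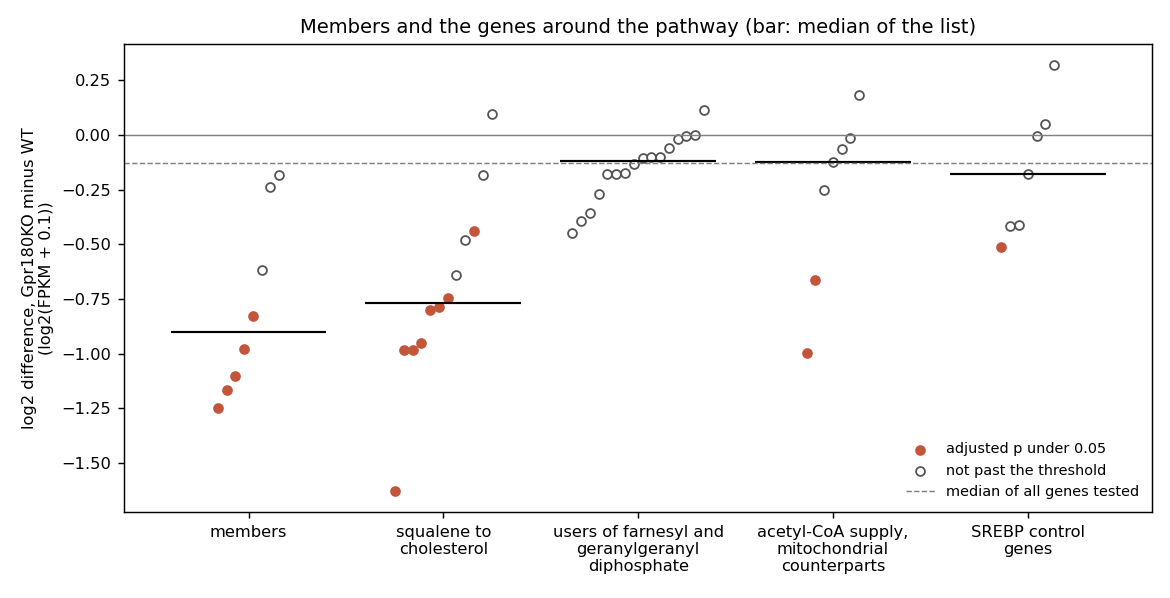
Log2 difference of each gene tested in the members and 4 lists around the pathway (1 point per gene, filled where limma's adjusted p is under 0.05; black bars are list medians, the dashed line the median of all genes). The members (median -0.90) and the enzymes from squalene to cholesterol (-0.77) lie below the users of farnesyl and geranylgeranyl diphosphate (-0.12).

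The livers were bulk tissue, in which fewer cells of a type and less RNA per cell cannot be told apart. Hepatocyte markers were abundant in every library, as the tissue label says. Of the 8 hepatocyte markers none passed the threshold (limma; 1 had an unadjusted p under 0.05), with a median log2 difference of 0.31, and their summed FPKM was 17923 to 21848 in WT and 19821 to 37159 in *Gpr180*KO livers, the highest being KO51. Some markers of stellate cells, fibroblasts and bile ducts were lower in *Gpr180*KO livers. Of 6 stellate cell and fibroblast markers 3 were lower, among them *Col1a1* at -1.99 (limma adjusted p = 0.0161), and their sum was 131.03 to 263 FPKM in WT and 74.4 to 129 FPKM in *Gpr180*KO livers. Both biliary markers tested were lower (*Spp1* -1.96, limma adjusted p = 0.00701, and *Sox9* -0.70, limma adjusted p = 0.0454), with sums of the 6 listed of 40.8 to 227 and 17.47 to 51.8 FPKM. *Sox9* lost its call after median-of-ratios scaling (limma adjusted p = 0.121). It averaged 1.44 FPKM in WT and 0.859 FPKM in *Gpr180*KO livers. The biliary markers that were not tested each averaged under 1 FPKM, so the sums mainly follow *Spp1*. Whether the share of bile duct cells differed was not tested.

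Of 6 macrophage markers 1 was lower (*Cd68* -0.69, limma adjusted p = 0.0257), with sums of 113 to 344 FPKM in WT and 136 to 209 FPKM in *Gpr180*KO livers. None of 6 endothelial markers passed the threshold (limma; 0 had an unadjusted p under 0.05), with sums of 75.4 to 123 and 68.6 to 112 FPKM. Of the 6 lymphocyte markers the 1 tested, *Ptprc*, did not pass (limma adjusted p = 0.0979), with sums of 4.02 to 10.4 and 3.29 to 6.23 FPKM. No marker of these lists was at 0 in every library. The part of these cells in the members' difference was not tested.

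Genes that followed the members from liver to liver were sought after the mean of each genotype and title style had been removed, so the genotype difference does not enter. Likeness was the Pearson correlation over 18 libraries with the mean of the 8 standardised members, among 10827 other genes, and is a description, since libraries share depth and scaling. The closest was *Dhcr7* (r = 0.94), the last enzyme of one branch of cholesterol synthesis. Of the 10 closest, *Nsdhl*, *Sc4mol* (now *Msmo1*) and *Fdft1* (r = 0.93, 0.93 and 0.92) are also sterol enzymes, and *Acss2* (0.93) supplies acetyl-CoA.

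The remaining 5 were *Glul*, glutamine synthetase (0.93), *Pex19*, a peroxisome import factor (0.93), *Mmab*, an enzyme of cobalamin metabolism that lies head to head with *Mvk* (0.93), *Atg7*, an autophagy enzyme (0.90), and *0610012H03Rik* (0.89). None of these 5 passed the genotype test, with log2 differences of -0.68 for *Glul*, -0.37 for *Mmab*, -0.26 for *0610012H03Rik*, -0.19 for *Pex19* and -0.05 for *Atg7*. Among the members themselves, 7 correlated with the mean of the others at r between 0.71 (*Idi1*) and 0.89 (*Acat2* and *Hmgcs1*). *Ggps1* did not (r = -0.29). These values pool both genotypes after the means of each genotype and title style were removed. Within WT livers alone, with title style means not removed, the relation of *Acat2* with *Hmgcs1* did not pass (permutation adjusted p = 0.178). There *Acat2* averaged 107 FPKM in title style 1 and 80.3 FPKM in title style 2, and *Hmgcs1* 195 and 232 FPKM. The part of the title styles in this relation was not tested.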

How the data were processed

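Single-read poly(A) libraries of liver RNA were aligned to the mouse genome (GRCm38, mm10, per the labels) with the TopHat Alignment application, whose output the study used as FPKM. The authors deposited, for each mouse, a table of FPKM per gene entry with lower and upper bounds of its confidence interval. The version of that application and its gene annotation are not given in the sources used here. FPKM is scaled to transcript length and library size, so no counts remain and long and short genes depend on how library composition varies.

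FPKM of entries with the same symbol were summed, and the 24 symbols with a failed estimate were left out. Genotype came from the labels. Limma 3.58.1 in R 4.3.3 (lmFit, eBayes with trend) was run on log2(FPKM + 0.1) for genes whose mean FPKM reached 1, with p-values adjusted by Benjamini-Hochberg, and was checked on simulated data. Correlations and ratios were computed in Python 3.11.15 (numpy 2.4.6, scipy 1.17.1). Gene models, shared 75-base windows and transcript lengths came from GENCODE M21 (GRCm38), and promoter windows from RefSeq (GRCm38.p6). The members and lists were chosen with earlier results of these data known. Genes named were the members, *Gpr180*, at most 4 called genes or else the extremes of each list, and the 10 genes most like the members. Other genes were chosen after their values were seen, among them *Tat*, *Pck1* and *Marco* as values per library, *Acat3*, *Fdft1* and *Srebf1*. The value of 1 listed gene is not reported here. The alternatives tried were other pseudocounts (1 and 0.01), other minimums of FPKM (0.1, 5 or no minimum), 3 other scalings, title style as a block or alone, other eBayes settings, weights per library, and each library left out.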

Additional observations from a re-analysis of the deposited data

Results flagged for a closer look

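The 8 members were examined in each genotype for a liver far from the other 8 (16 groups, gap divided by range, Dixon's critical value 0.493 for 9 samples), and chance flags about 1 in 20 groups. The 1 value that stood out was *Fdps* in W134, 104.3 FPKM, the next WT liver being at 242 FPKM (gap 0.568 of the range). W134 was also the lowest WT liver for *Acat2*, *Hmgcs1*, *Mvk*, *Pmvk*, *Mvd* and *Idi1*. The cause was not tested. Without W134 the log2 difference of *Fdps* was -1.15 in place of -0.98 (limma adjusted p = 0.0168).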

How the results depend on the processing

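No alternative turned the direction of a member. The count of members called lower (5) was 3 with a minimum of 5 FPKM, with no minimum, with median-of-ratios or 75th percentile scaling and with eBayes without trend. In that order, 200 of 6742, 293 of 23328, 168 of 10814, 211 of 10824 and 461 of 10835 genes were called lower. The count of members was 0 in title style 2 alone, where 1 of 10725 genes was called lower. It ranged from 3 to 6 when each library was left out, with 113 of 10817 to 843 of 10851 genes called lower. *Hmgcs1*, *Pmvk* and *Idi1* were called in 34 of 35 alternatives each, the exception being title style 2 alone. *Mvd* and *Fdps* lost their call without any 1 of 12 libraries (W317, W318, W319, W320, W131, W133, W156, KO320, KO52, KO53, KO54 and KO56), with adjusted p from 0.0521 to 0.0992, and were called in 16 of 35 alternatives each. *Mvk* passed in 7 of 35. The cause was not tested. *Acat2* and *Ggps1* passed in none (limma). The count of members called higher was 0 throughout. The count of ratios past the threshold (2) was 0 in title style 1 alone and 0 in title style 2 alone. It was 2 to 3 with each library left out. In title style 1, 4 against 4 livers cannot give an exact p under 0.0286, and in title style 2, 5 against 5 none under 0.00794. After adjustment over the 7 ratios, 1 ratio alone at these floors could not pass. The *Hmgcs1* to *Acat2* ratio was at the floor in title style 1 (exact permutation unadjusted p = 0.0286, adjusted p = 0.2). The *Mvk* to *Hmgcs1* ratio was far from that floor in title style 1 (exact permutation unadjusted p = 0.314). In title style 2 this ratio and that of *Hmgcs1* to *Acat2* each had an unadjusted p of 0.0159 (exact permutation). The correlations past the threshold were 5, or 6 with TPM scaling. The count of members whose difference differed between title styles was 0 throughout (limma). Title style as a block called 6 members lower, *Mvk* in addition, and 1031 of 10835 genes. Some settings were added after seeing the data. Median-of-ratios scaling with title style as a block called 4 members lower (386 of 10814 genes). Leaving out KO51 with KO319 called 6 (827 of 10866 genes). Leaving out W134 with KO53, KO54 and KO56 called 5 (85 of 10866 genes). Depth is unknown, so counting error of *Ggps1* and *Mvk* can be judged by the deposited bounds alone.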

Other observations

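With genotype and title style means removed, the lowest correlations with the mean of the members over 18 libraries were those of *Cbs*, cystathionine beta-synthase (r = -0.90), *Hal*, histidine ammonia-lyase (r = -0.89), and *Gls2*, liver glutaminase (r = -0.89). The 10 lowest also hold genes of other kinds, such as *Slco2a1*, *Cyp3a13* and *Nnmt*. These genes were named after their values were seen, and the correlations are descriptions with no test. *Hal* was also higher in *Gpr180*KO livers by genotype, with 117 ± 29.4 FPKM against 68.2 ± 15.2 FPKM in WT livers (SD, n = 9 each; log2 difference 0.77, limma adjusted p = 0.0132). *Cbs* was higher as well, with 255 ± 34.7 against 188 ± 42.4 FPKM (log2 difference 0.47, limma adjusted p = 0.0393). *Gls2* was at 192 ± 74.2 and 118 ± 34.9 FPKM and did not pass the threshold (log2 difference 0.66, limma adjusted p = 0.0527). The livers with low members were also those that stood apart in *Tat* and *Pck1* (W134, KO53, KO54 and KO56), and their part in these correlations was not tested.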
